A study of Mus musculus with 4 samples.

Results

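This account describes 10 genes of the Notch pathway in mouse mammary tumors: the receptors Notch1, Notch3 and Notch4, the ligands Dll1, Jag1 and Jag2, and the target genes Hes1, Hey1, Heyl and Nrarp. They were matched by gene symbol to the array annotation, and all 10 were found, with 18 probe sets, among 12393 genes measured by probe sets that carry exactly 1 symbol. A probe set is a group of short probes on the array that together report 1 transcript.

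Notch signaling passes between touching cells. A ligand of the Delta or Jagged family on one cell binds a Notch receptor on its neighbor, ADAM proteases and then gamma-secretase cut the receptor, and the freed intracellular domain joins the DNA-binding protein RBPJ and a Mastermind coactivator to switch on target genes, among them repressors of the HES and HEY families. In the mammary gland the pathway takes part in the choice of luminal over basal fate, and activation of Notch1 or Notch4 by insertion of the mouse mammary tumor virus causes mammary tumors in mice.

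Female nulliparous mice were either wild-type FVB (WT) or age-matched FVB littermates carrying MMTV-PAX8PPARg, a transgene in which the promoter of the mouse mammary tumor virus, active in mammary epithelium but also in some other cells, drives a PAX8 and PPARg fusion protein. All mice received 15 mg of the progestin MP (Depo-Provera) and then 4 weekly doses of 1 mg of the carcinogen DMBA by gavage, so the placebo groups carry both agents too. From the day after the last DMBA dose they bore 60-day release pellets with placebo or with 2.5 mg RU486 (mifepristone), which blocks the receptors for progesterone and for glucocorticoids, renewed after 60 days. Each of the 4 groups (both genotypes, each with placebo or RU486) was measured on 1 Affymetrix array whose RNA came from 5 mice in equal parts. How far single mice vary is therefore unknown, no comparison below has a test, and differences are described by size alone.

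Signals are linear and as deposited. Differences were computed as log2(signal + 16) after centring of the arrays on their medians, and a difference of at least 1 on that scale, or 2-fold, is the size used for counting. The probe sets of 1 gene share the same RNA pools and arrays and are not replicates. They show how far probe sets of a gene disagree, not how far arrays differ. Over 2267 genes with several bright probe sets, the SD between probe sets of a gene was 0.27 log2 for RU486 against placebo in WT and 0.32 log2 in PAX8PPARg.

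The arrays had trimmed mean signals of 500.1 to 500.2, but their 18 spike-in controls did not match: relative to WT placebo, the median signal ratio of these controls was 1.59 for WT RU486 and 2.43 for PAX8PPARg RU486. The highest of 27 bacterial controls, for which no mouse transcript is meant to bind, read 9.6 with placebo and 18.5 with RU486 in WT, and 8.3 with placebo and 35.3 with RU486 in PAX8PPARg. Signals at or under that level are referred to as within the background range. The labelled tissue was checked against epithelial markers: Krt18 and Krt8, keratins of luminal epithelium, were well above background on every array, but the summed signal of 12 luminal genes was 38250.5 with placebo and 6336.3 with RU486 in WT, and 34603.3 with placebo and 38767.2 with RU486 in PAX8PPARg. The tumor pool of WT mice given RU486 therefore stood apart from the other 3 in its epithelial signal.

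The stretch before the start site is shown for the 3 members whose promoters held a site of the kind that HES and HEY repressors can bind. RefSeq promoters (GRCm38.p6) were at hand for 7 of the 10 members, with 8 start sites; Hes1, Hey1 and Heyl had none. The 250 bases upstream of each start were searched on both strands for CACGTG (the E-box), for CACGCG (the class C site), which are known for such repressors, and for TGGGAA, the core of the RBPJ site. An E-box or class C site stood in 3 of the 8 member promoters and in 12.9% of 32851 promoters searched alike. TGGGAA stood in 0 of the 8 and in 21.6% of the 32851, which says only that those letters are not in these windows. The sequences below run 5′ to 3′ on the gene's strand and end at the base before the start, with the E-box or the class C site, which on the other strand reads CGCGTG, in capitals.
Nrarp: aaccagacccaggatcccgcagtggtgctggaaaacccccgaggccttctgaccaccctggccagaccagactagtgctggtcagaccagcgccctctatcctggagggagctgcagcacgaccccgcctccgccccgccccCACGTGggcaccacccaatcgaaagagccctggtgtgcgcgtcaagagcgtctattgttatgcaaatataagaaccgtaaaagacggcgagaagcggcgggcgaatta
Dll1: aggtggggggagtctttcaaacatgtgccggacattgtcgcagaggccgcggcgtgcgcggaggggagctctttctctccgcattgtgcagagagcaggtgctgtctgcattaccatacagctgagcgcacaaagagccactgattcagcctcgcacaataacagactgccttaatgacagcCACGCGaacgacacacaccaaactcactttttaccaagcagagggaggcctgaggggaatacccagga
Jag1: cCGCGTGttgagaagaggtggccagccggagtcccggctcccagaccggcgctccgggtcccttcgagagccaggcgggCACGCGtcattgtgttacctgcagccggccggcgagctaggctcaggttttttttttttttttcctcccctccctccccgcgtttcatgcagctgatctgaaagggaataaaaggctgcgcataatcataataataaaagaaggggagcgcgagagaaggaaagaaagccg
The Nrarp stretch is chr2:25180508-25180757 on the plus strand, and its site begins 108 bases before the start. The Dll1 stretch is chr17:15376933-15377182 on the minus strand, and its site begins 68 bases before the start. The Jag1 stretch is chr2:137116521-137116770 on the minus strand, with sites that begin 249 and 171 bases before the start. A match is a description of letters, not of binding.

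Across the 4 arrays the 10 genes showed one main pattern. The WT RU486 array was the dimmest of the 4 for 8 of the 10 genes, the exceptions being Notch4 and Hes1, which were dimmest on the WT placebo array. Among all 12393 genes, 32.7% were dimmest on the WT RU486 array. The PAX8PPARg RU486 array was the brightest for 7 of the 10, against 29.6% of all genes. The other 3 were Notch3 and Hey1, brightest under placebo in PAX8PPARg, and Jag1, brightest under placebo in WT.

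**Figure D1:**
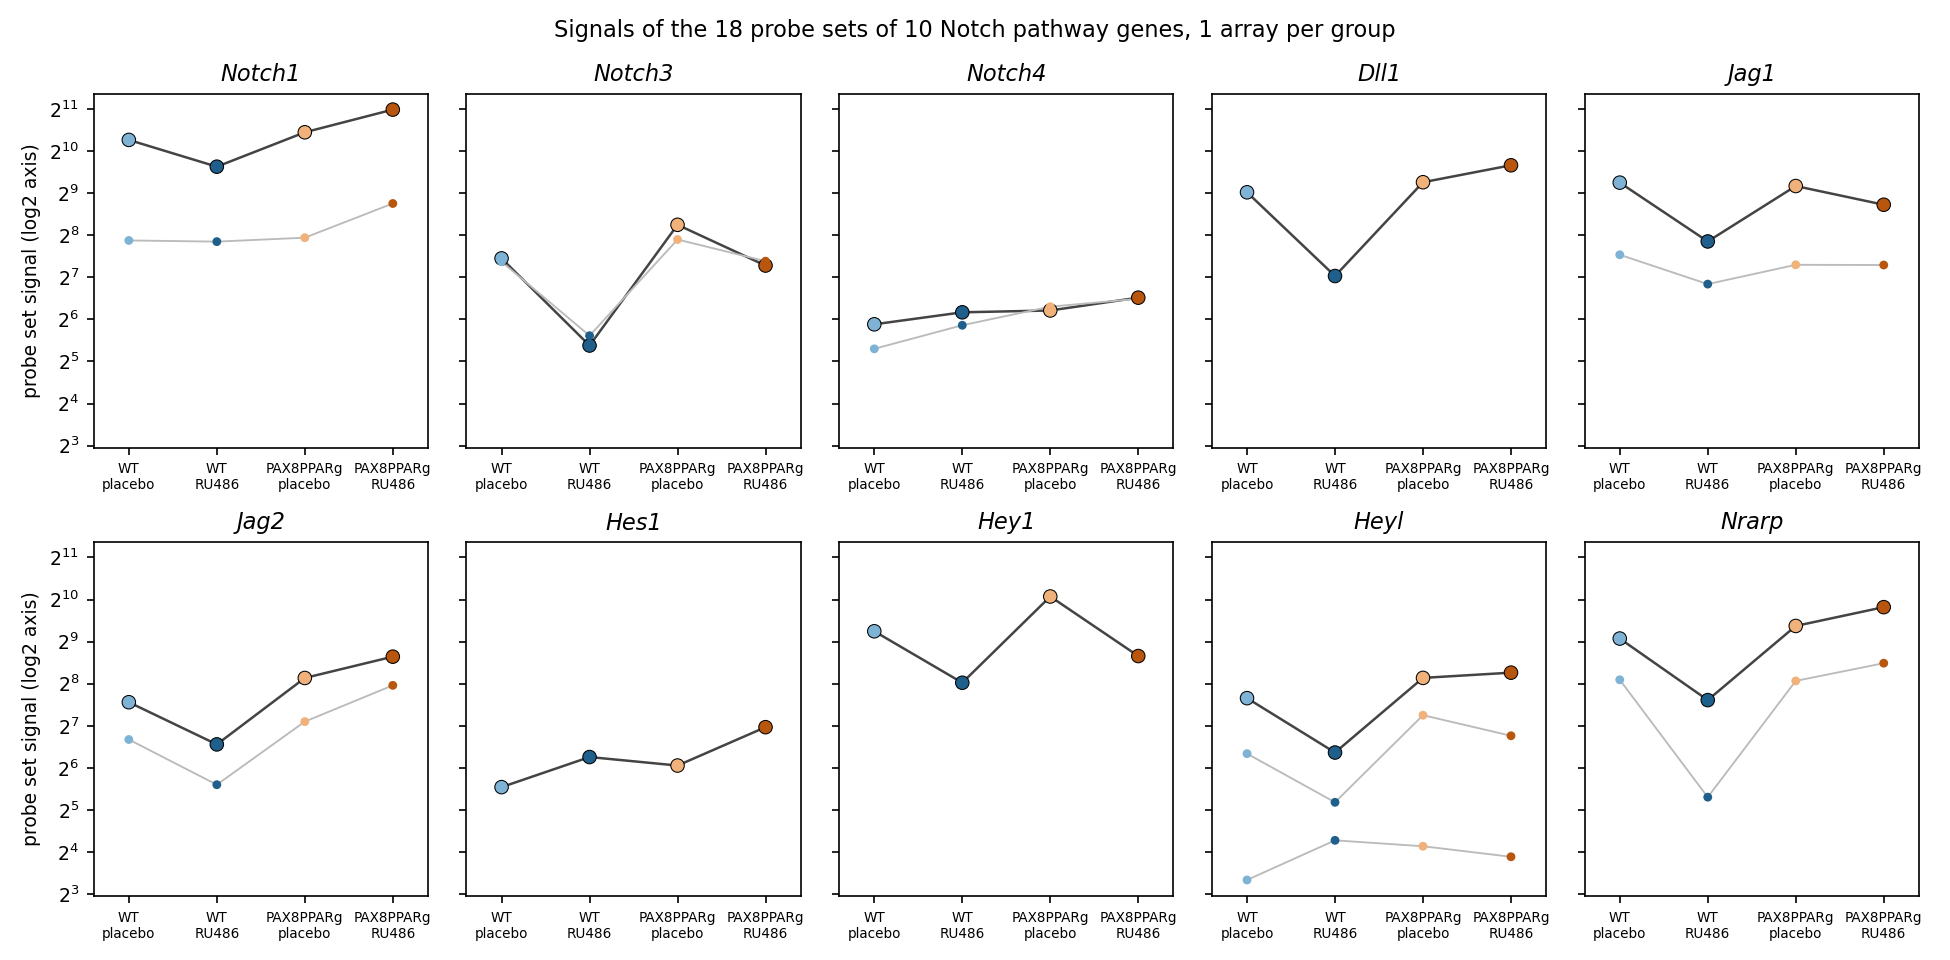
Probe set signal (log2 axis) of the 10 genes on the 4 arrays, with 1 array per group and lines joining the points of 1 probe set for the eye only. Large outlined points are the brightest probe set of a gene and small points its other probe sets; a dip at the WT RU486 array appears for 8 genes, deepest in Notch3, Dll1 and Nrarp, and not for Notch4 and Hes1.

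The receptors did not share 1 pattern. Notch1, the receptor best known for its part in lymphoid leukemia and in epithelial fate, read 1229.8 with placebo and 791.3 with RU486 in WT, and 1394.1 with placebo and 2026.4 with RU486 in PAX8PPARg. It was thus lowest with RU486 in WT and highest with RU486 in PAX8PPARg, by log2 differences of -0.63 and 0.67 from placebo, both short of 2-fold. Its second probe set read 234.8, 230.3, 245.7 and 431.6 in the same order, so the WT difference was -0.03 there and the PAX8PPARg difference 0.91.

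Notch3, a receptor of vascular smooth muscle and pericytes that is also made by mammary luminal progenitors, read 174.7, 41.6, 303.8 and 155.3 in that order. Both RU486 arrays were below the placebo array of their genotype, by -1.73 log2 in WT and -0.77 in PAX8PPARg. A second probe set gave 165.6, 48.9, 238.5 and 166.9, with differences of -1.48 and -0.34. Notch3 thus had the widest range of the receptors, with the brightest array 7.30 times the dimmest.

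Notch4, a receptor chiefly of endothelial cells, read 59.0, 71.9, 74.1 and 91.5, and its other probe set 39.4, 58.1, 78.9 and 89.8. Each RU486 array was a little above its placebo array, by 0.23 log2 in WT and 0.39 in PAX8PPARg. With signals this near the bacterial controls, which were themselves higher on the RU486 arrays, the part of background in these small differences was not tested.

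Among the ligands, Dll1 varied most. Dll1, a Delta ligand of basal mammary cells, read 518.9 with placebo and 130.7 with RU486 in WT, and 612.5 with placebo and 809.9 with RU486 in PAX8PPARg. The 3 arrays other than WT RU486 lay close together and that array far below them, at -1.87 log2 from WT placebo, while RU486 differed from placebo by 0.53 in PAX8PPARg. It has 1 probe set here, so no second reading of this gene was possible.

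Jag2, a Jagged ligand of stratified epithelia, read 188.7, 94.2, 281.3 and 399.6 in the same order, and its second probe set 102.1, 48.5, 137.1 and 249.1. Both probe sets were lowest on the WT RU486 and highest on the PAX8PPARg RU486 array. The RU486 differences were -0.89 and -0.87 log2 in WT, and 0.62 and 0.93 in PAX8PPARg, for the brighter and the dimmer probe set. Jag1, the ligand with broad expression in epithelium and vessel walls, read 608.4, 231.0, 575.5 and 422.9, with a second probe set at 185.5, 114.4, 157.2 and 156.7. In WT the RU486 array was lower by both, at -1.34 and -0.63 log2, whereas in PAX8PPARg the values were -0.30 and 0.13, of opposite sign.

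The target genes split further. Nrarp, which encodes an ankyrin repeat protein that limits Notch signaling as a feedback inhibitor, read 538.5, 195.4, 662.7 and 903.3, and by its second probe set 273.1, 39.5, 268.0 and 358.9. In WT the RU486 array was lower by -1.39 log2 with the first and -2.38 with the second, and in PAX8PPARg it was higher by 0.57 and 0.53. It has the same order of arrays as Dll1 in its brighter probe set.

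Heyl, a HEY repressor known from vascular smooth muscle, read 201.8, 82.4, 281.7 and 307.1, a WT difference of -1.15 log2 and a PAX8PPARg difference of 0.25. Its second probe set read 80.9, 36.3, 152.4 and 108.6, with differences of -0.89 and -0.30, so the sign in PAX8PPARg depended on the probe set. The third was near background on every array, at 10.1, 19.4, 17.6 and 14.8, and the last value lay in the background range.

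Hey1, a HEY repressor of endothelium and mesenchyme, read 607.1 with placebo and 260.1 with RU486 in WT, and 1076.6 with placebo and 403.7 with RU486 in PAX8PPARg. It was the 1 member at least 2-fold lower with RU486 in both genotypes, by -1.17 log2 in WT and -1.25 in PAX8PPARg. Hes1, the HES repressor most often read as a Notch target, read 46.6, 76.5, 66.5 and 125.1, and was higher on both RU486 arrays, by 0.56 log2 in WT and 0.91 in PAX8PPARg. Its signals were low, and the bacterial controls were higher on the same 2 arrays; their part in the Hes1 values was not tested. Hes1 and Hey1 have 1 probe set each.

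Counted over the 10 genes, RU486 in WT went with a level at least 2-fold lower for 6 and at least 2-fold higher for 0. The share of all genes lower by that size was 8.88%, or 8.26% of genes at or above the median level, and the share higher was 7.46%, or 5.5%. The 6 were Dll1, Notch3, Nrarp, Jag1, Hey1 and Heyl, that is 1 of 3 receptors, 2 of 3 ligands and 3 of 4 targets. When the probe sets of a gene were averaged, Heyl at -0.53 log2 and Jag1 at -0.98 fell short of 2-fold, which left 4. The median difference of the 10 was -1.16 log2, beside 0.01 over all genes. Of the 6 members at or above the median level, 4 were at least 2-fold lower and 0 higher, the count to set beside 8.26% and 5.5%. Since the members were chosen with earlier results on these arrays known, these counts describe the genes and test nothing.

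In PAX8PPARg, 1 of the 10, Hey1, was at least 2-fold lower with RU486 and 0 were at least 2-fold higher, beside 7.08% and 10.6% of all genes, or 5.15% and 5.12% of genes at or above the median level. These shares of all genes depend on the scaling, with 877 genes lower and 1316 higher after centring, 1080 and 1028 without it, and 1020 and 864 after quantile normalization. Of the 6 members at or above the median level, 1 was lower by that size and 0 were higher. The median of the 10 members was 0.46 log2 against 0.13 over all genes. The members thus lay mostly within 2-fold in this genotype, between -1.25 and 0.91.

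The RU486 differences of both genotypes, which share no array, are set side by side in the plot of WT against PAX8PPARg differences. Of the 10 members, 5 were lower in WT and higher in PAX8PPARg (Notch1, Dll1, Jag2, Heyl and Nrarp), 3 were lower in both (Notch3, Jag1 and Hey1), 2 were higher in both (Notch4 and Hes1), and 0 were higher in WT and lower in PAX8PPARg. Over all genes these shares were 28.2%, 21.1%, 31.3% and 19.5%. These signs are by the brightest probe sets. By second probe sets, Jag1 was higher (0.13) and Heyl lower (-0.30) in PAX8PPARg. The difference of the RU486 effect, PAX8PPARg minus WT, was at least 2-fold on the positive side for 6 members and on the negative side for 0, beside 15.6% and 12.2% of all genes, or 11.7% and 10% of genes at or above the median level. The 6 were Dll1 at 2.39 log2, Nrarp at 1.96, Jag2 at 1.51, Heyl at 1.40, Notch1 at 1.29 and Jag1 at 1.04, while Hey1 was at -0.07. With averaged probe sets Heyl was at 0.52 and Jag1 at 0.90, both short of 2-fold, and Jag1 was short of it without centring too. The second Notch1 probe set gave 0.93, short of 2-fold, and the average of the Notch1 probe sets 1.11. Notch3, at 0.96, was past 2-fold with averaged probe sets (1.05) and with a pseudocount of 1 (1.22), and the count over these alternatives and the others was 5 to 7. Of the 6 members at or above the median level, 5 were at least 2-fold on the positive side and 0 on the negative, the count to set beside 11.7% and 10%.

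**Figure D2:**
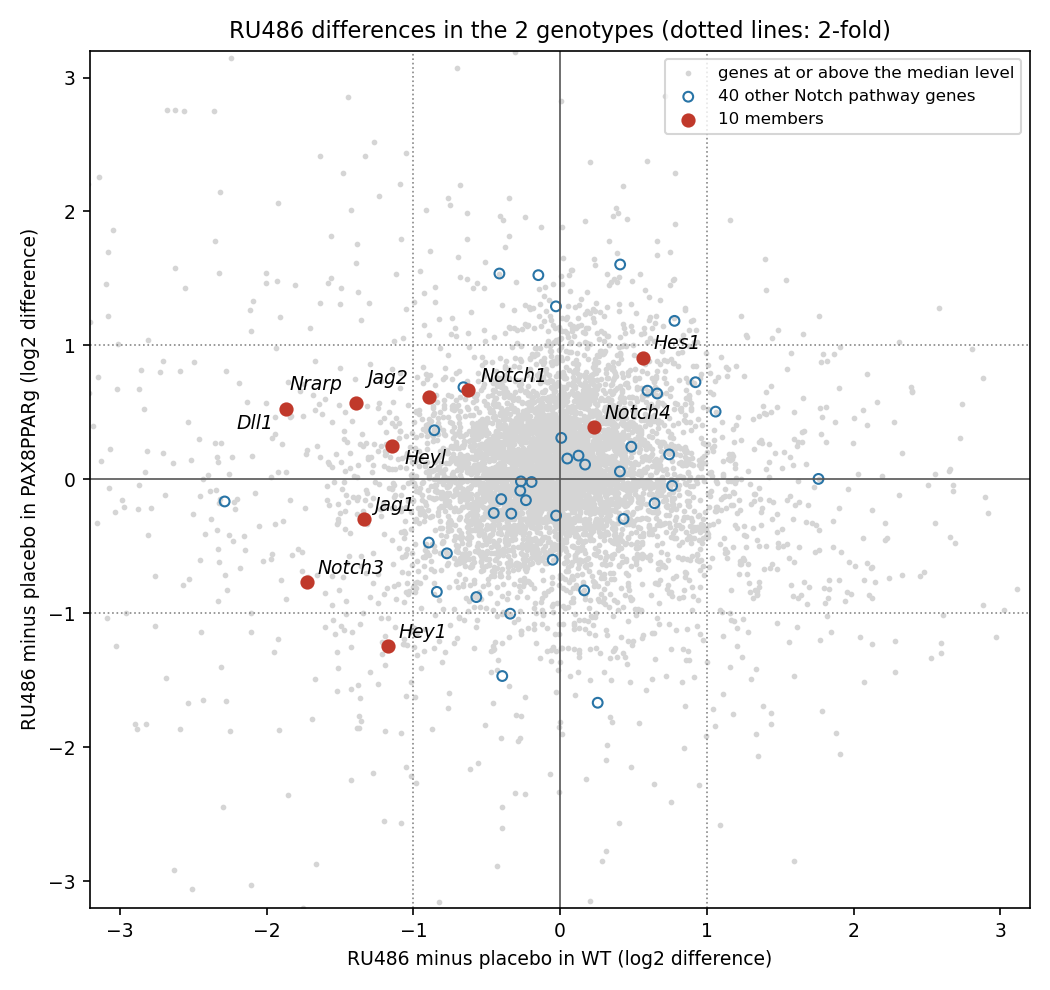
RU486 minus placebo in WT (x axis) and in PAX8PPARg (y axis), both as log2 differences, for the 10 members (red), 40 other Notch pathway genes (blue rings) and genes at or above the median level (gray), of which 115 beyond 3.2 on either axis are not drawn. Most members lie left of 0, with Dll1, Nrarp, Jag2, Heyl and Notch1 above the horizontal line and Notch3, Jag1 and Hey1 below it.

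The transgene was compared with WT under each treatment. Under placebo no member differed by 2-fold between the genotypes. None of the 10 differed 2-fold (0 lower and 0 higher, beside 5.49% and 4.34% of all genes, or 4.42% and 1.89% of genes at or above the median level), and the members ranged from -0.27 log2 for Jag1 to 0.62 for Hey1. By their brightest probe sets, the differences of Notch1, Notch4, Dll1, Hes1 and Nrarp were at most 0.21, under the 0.24 log2 SD between probe sets of a gene in this comparison. The other Notch4 probe set gave 0.59, and without centring Hes1 at 0.40, Nrarp at 0.29 and Notch4 at 0.26 exceeded that SD. Hes1 and Notch4 were dimmer than the bright probe sets that gave this SD. The median of the members was 0.15 and that of all genes -0.15, and without centring they were 0.34 and 0.04. For all genes the split was 680 lower and 538 higher after centring, 482 and 744 without it, and 570 and 590 after quantile normalization.

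Under RU486 the genotypes stood apart. All 10 members were higher on the PAX8PPARg array, 6 of them at least 2-fold and 0 at least 2-fold lower, beside 10.9% and 10.2% of all genes, or 7.23% and 10.3% of genes at or above the median level. The 6 were Dll1 at 2.44 log2, Nrarp at 2.06, Jag2 at 1.86, Heyl at 1.66, Notch3 at 1.51 and Notch1 at 1.28. With averaged probe sets Heyl was at 0.86 and Notch1 at 1.04, and the second Notch1 probe set alone gave 0.80, short of 2-fold. Of the 6 members at or above the median level, 4 were at least 2-fold higher and 0 lower, the count to set beside 7.23% and 10.3%. The median of the 10 members was 1.40 against 0.01 over all genes. This comparison uses the same WT RU486 array as the WT RU486 difference, so the values of the 2 comparisons are not separate evidence.

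Markers of several cell types moved with these genes. In bulk tumor RNA, fewer cells of a type and less RNA per cell cannot be told apart. With RU486 in WT, 11 of 12 luminal, 9 of 9 basal and 8 of 8 keratinized epithelial markers were at least 2-fold lower, beside 8.88% of all genes. Their medians were -3.14, -3.14 and -3.82 log2, all larger in size than the -1.16 of the members. The summed basal signal was 12748.6 with placebo and 922.1 with RU486 in WT, and 7580.4 with placebo and 23576.8 with RU486 in PAX8PPARg. The keratinized sum was 4988.5, 202.4, 771.8 and 6810.8 in the same order. Both sums, and the luminal sum given above, were lowest on the array where Dll1, Jag2 and Nrarp were lowest. All were also highest on the array where these genes were highest, the luminal sum only slightly. On the WT RU486 array, 2 luminal markers (Cldn4 and Elf3), 1 basal marker (Krt15) and 7 of 8 keratinized markers were within the background range, while no member was by its brightest probe set. The part of epithelial content in the member values was not tested.

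**Figure D3:**
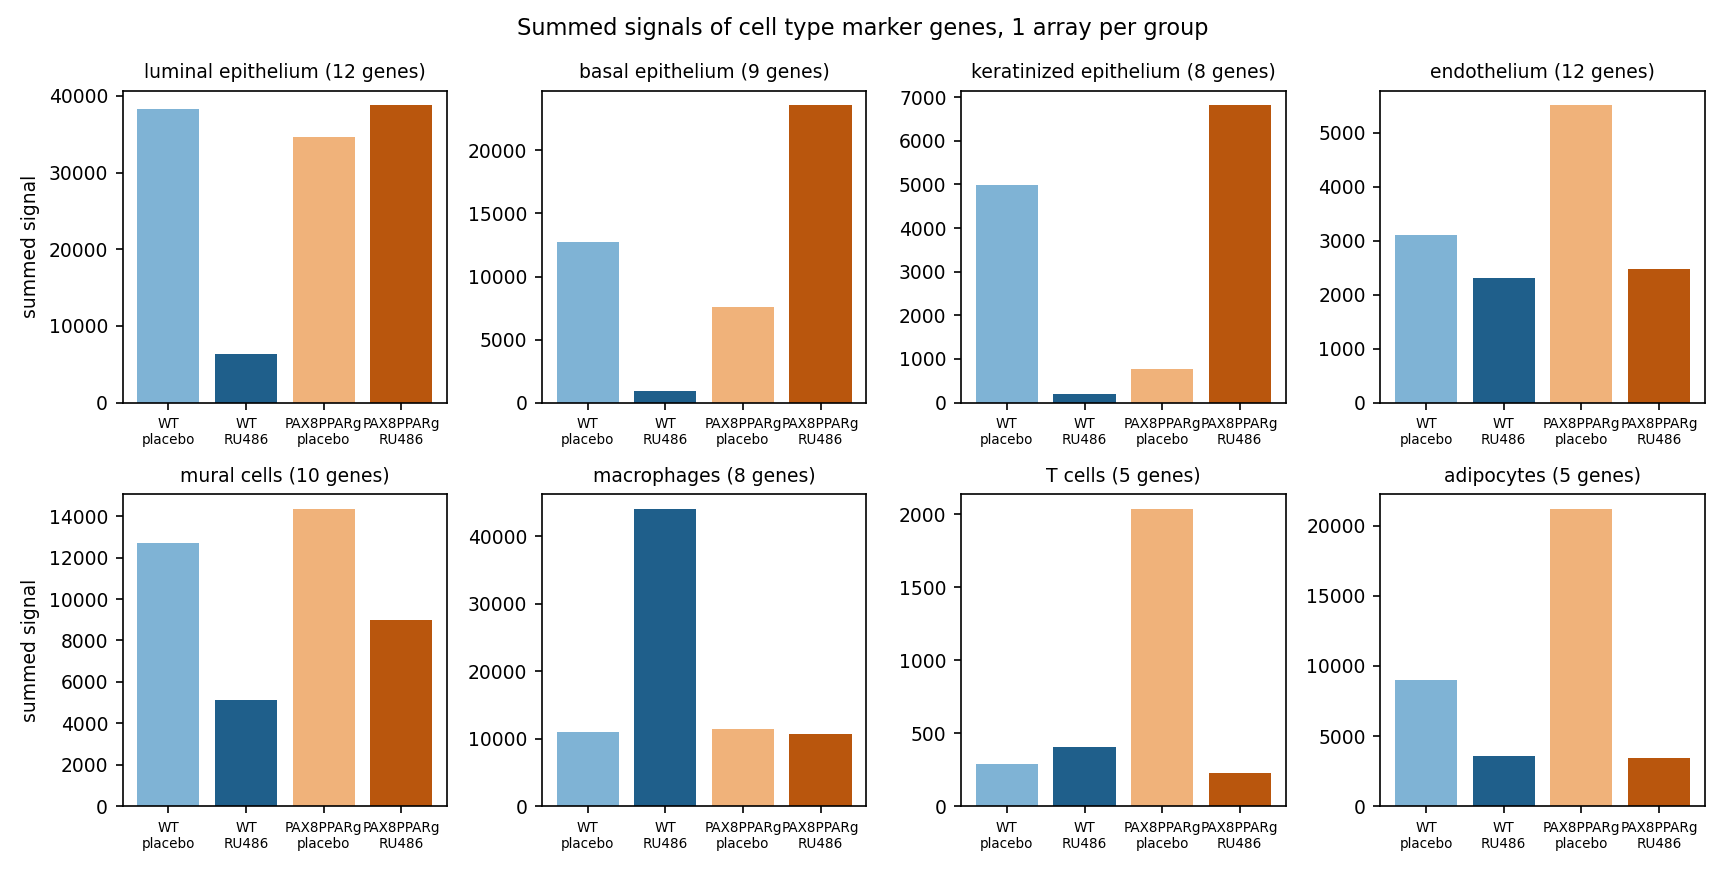
Summed linear signal of the marker genes of 8 cell types on the 4 arrays, with 1 array per group and a separate axis from 0 in each panel. Epithelial sums are lowest and the macrophage sum highest on the WT RU486 array, and endothelial, mural, T cell and adipocyte sums are highest on the PAX8PPARg placebo array.

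Vascular markers followed another order, which some members shared. The 12 endothelial genes summed to 3108 with placebo and 2307.9 with RU486 in WT, and 5512.4 with placebo and 2474.1 with RU486 in PAX8PPARg. The 10 mural cell genes, which include the contractile genes Acta2 and Tagln that myoepithelial cells also express, summed to 12688.3, 5133.1, 14356.3 and 8988.8. Both sums had the same order of arrays, and so did Hey1 and the brighter Notch3 probe set. The second Notch3 probe set did not, as PAX8PPARg RU486 (166.9) was slightly above WT placebo (165.6). The order therefore ties neither gene to 1 of these cell types. With RU486 in WT, 0 of 12 endothelial and 4 of 10 mural genes were at least 2-fold lower, beside 8.88% of all genes. In PAX8PPARg 6 of 12 and 1 of 10 were lower by that size, beside 7.08% of all genes. There 1 of 10 mural genes was at least 2-fold higher, beside 10.6% of all genes. None of the vascular markers was within the background range on any array. The part of vessel content in the Hey1 and Notch3 values was not tested.

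The other genes of the pathway, a list of 45 of which 40 were measured, had medians near 0. With RU486 in WT, 1 of the 40 was lower by 2-fold or more and 2 were higher, beside 8.88% and 7.46% of all genes. The median was -0.03 log2. In PAX8PPARg, 3 were lower and 5 higher, beside 7.08% and 10.6% of all genes, with a median of -0.02. PAX8PPARg minus WT gave 0 lower and 1 higher under placebo, beside 5.49% and 4.34% of all genes. Under RU486 it gave 3 lower and 3 higher, beside 10.2% and 10.9%. No count of this list thus stood far above the share of all genes. The naming rule for this list, which asked for 4-fold in 1 comparison or 2-fold with RU486 in both genotypes, selected Dtx1 alone, and the other genes named next were chosen after their values were seen.

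Dtx1, which encodes the ubiquitin ligase Deltex and is a Notch target in lymphocytes, read 75.7 with placebo and 2.8 with RU486 in WT, and 99.4 with placebo and 77.8 with RU486 in PAX8PPARg. The WT RU486 signal was within the background range, so WT placebo was at least 2.66-fold higher, with the dim signal set at the level of the bacterial controls. Dtx1 was thus low on the same array as 8 of the members.

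The 2 genes higher with RU486 in WT were the receptor Notch2 and the DNA-binding partner Rbpj. Rbpj read 446.1, 1549.0, 479.8 and 436.9, a difference of 1.76 log2 in WT and 0.00 in PAX8PPARg, and its second probe set gave 1.32 and 0.51. Notch2 read 1941.3, 4061.4, 1442.0 and 1870.8, with differences of 1.06 and 0.51, and 1.13 and 1.11 by its second probe set. Both were thus highest on the array where Notch1, Notch3 and most ligands were lowest. The 8 macrophage genes summed to 10905 with placebo and 44040.9 with RU486 in WT, and 11456.1 with placebo and 10731 with RU486 in PAX8PPARg. With RU486 in WT, 8 of 8 were at least 2-fold higher, beside 7.46% of all genes. The part of macrophage content in the Rbpj and Notch2 values was not tested.

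In PAX8PPARg the 3 genes lower with RU486 were Mfng, Hey2 and Aph1a. Mfng, the Manic fringe enzyme that adds sugar to Notch receptors, read 152.8, 185.5, 450.9 and 117.9, so the PAX8PPARg placebo array stood above the others, and the differences were -1.67 log2 for RU486 in PAX8PPARg and 1.28 for PAX8PPARg under placebo. The 5 T cell genes had the same order of arrays, at 285.4, 402.2, 2037.8 and 229.5 in sum; their part in the Mfng value was not tested. Hey2, a HEY repressor of arteries and heart, read 31.2, 19.9, 66.6 and 11.2. The last value lay in the background range, so PAX8PPARg placebo was at least 1.47-fold higher than PAX8PPARg RU486. Aph1a, a subunit of gamma-secretase, was at -1.004 log2 by its brightest of 3 probe sets, and the other 2 gave -0.23 and 0.07.

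The 5 genes counted as higher with RU486 in PAX8PPARg were Hes6, Hes5, Dner, Dll3 and Mib2, though Dner and Dll3 lay at or near background. Hes6, a HES family member known to oppose Hes1, read 255.7, 187.9, 218.4 and 603.9, with 1.54 log2 in PAX8PPARg against -0.41 in WT, and its second probe set gave 1.998 and -0.34. Hes5, a Notch target of the nervous system, read 9.5, 7.0, 18.7 and 75.0, and both WT values lay in the background range. Its second probe set read 16.3 with placebo and 39.6 with RU486 in PAX8PPARg, a difference of 0.92 log2, short of 2-fold. Dner and Dll3 were within it on the PAX8PPARg placebo array. Dll3 was within it on the PAX8PPARg RU486 array as well, so no rise can be read for Dll3 and no fold is given. Dner read 36.1 on the PAX8PPARg RU486 array, where the highest bacterial control read 35.3. Its other probe set read 1.1 with placebo and 7.2 with RU486 in PAX8PPARg, both within background, a difference of 0.57 log2. Mib2, a ubiquitin ligase for ligands, read 63.9, 62.3, 37.6 and 103.6. Under RU486, the 3 genes counted as lower in PAX8PPARg than in WT were Rbpj, Notch2 and Pofut1, and the 3 higher were Dtx1, Hes5 and Hes6. Pofut1 was within the background range in PAX8PPARg, so WT was at least 1.64-fold higher, a bound short of 2-fold. Its second probe set gave 0.17 log2, of the other sign.

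Apart from Aph1a, given above, the ADAM proteases Adam10 and Adam17, the gamma-secretase genes Psen2, Psenen and Ncstn, and the coactivator genes Maml1 and Maml2 lay within 2-fold in both RU486 comparisons. Adam10 read 1818.2, 2415.6, 2226.6 and 2112.7, and Maml1 read 467.0, 457.7, 614.5 and 460.4. The fringe gene Lfng read 169.0, 293.5, 252.3 and 262.2, a WT difference of 0.74 log2.

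**Figure D4:**
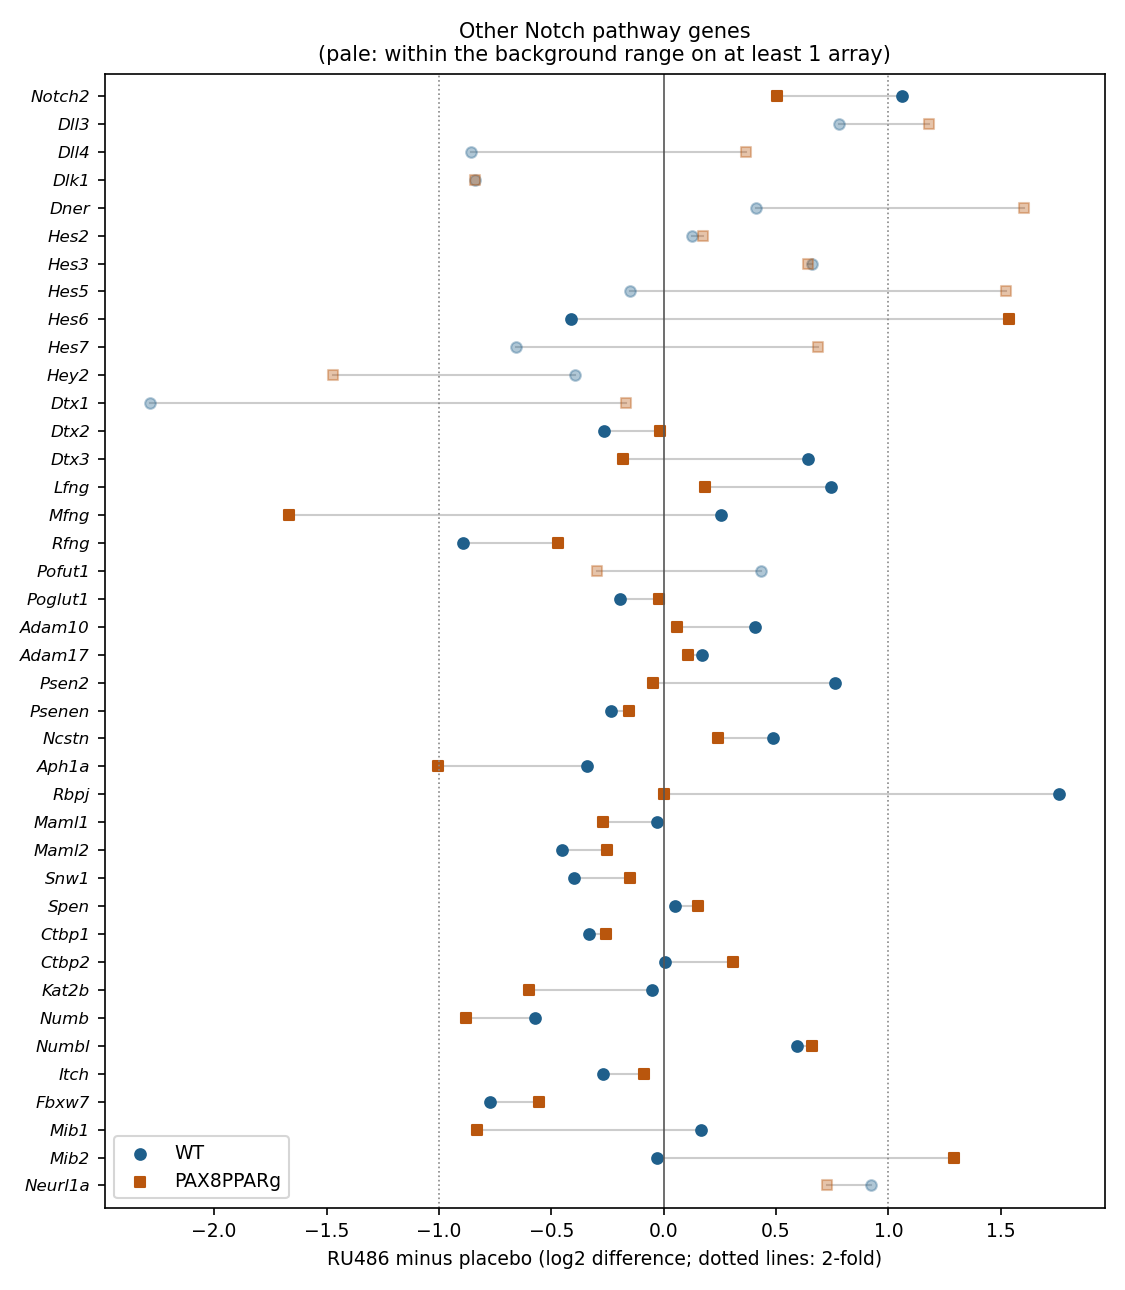
RU486 minus placebo as log2 difference for the 40 other Notch pathway genes in WT (circles) and PAX8PPARg (squares), from the brightest probe set of each gene, with 2-fold marked by dotted lines. Most points lie within 2-fold; Rbpj and Notch2 stand to the right in WT, Dtx1 to the left in WT, and Hes6 to the right and Mfng to the left in PAX8PPARg.

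The members were also compared by shape, as the Euclidean distance between log2 profiles over the 4 arrays after each gene was centred on its own mean. Among member pairs the closest were Heyl and Nrarp at 0.31, Jag2 and Heyl at 0.35, Jag2 and Nrarp at 0.35, and Dll1 and Nrarp at 0.37. Hes1 was closest to Notch4, at 0.49. Of genes at or above the median level outside the list, the closest to Dll1 was Psrc1 (0.10), to Nrarp Chmp4c (0.15), to Jag1 Tcf7l2 (0.08), to Hey1 Gclm (0.08) and to Notch3 Cst6 (0.22). With 4 arrays many genes have like profiles: 1742 lay within 0.5 of Notch4 and 207 of Notch1, but 22 of Dll1 and 19 of Notch3.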

How the data were processed

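The values deposited by the authors are linear probe set signals (intensity) for 4 arrays. Neither the signal algorithm nor a genome build is named by the labels or the table. The 2% trimmed means were equal, so the deposited intensity values had been scaled before deposit. Raw files and detection calls were not analysed here.

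Of 22690 probe sets, 64 were controls and 20380 others had exactly 1 symbol, which covered 12393 genes. Where a gene had several probe sets, the brightest on average stood for it. Differences were taken on log2(signal + 16) after median centring of the arrays. A total of 6197 genes, and 6 of the 10 members, lay at or above the median level of all genes, and counts used no level filter unless stated. Bounds set a dim signal at the highest bacterial control. The replicate spread is unknown, so no test was made, and precision is limited by having 4 arrays.

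Members, lists and alternatives were chosen with earlier results of these data known. The size rule for naming other Notch pathway genes, 2-fold with RU486 in both genotypes or 4-fold in 1 comparison, named Dtx1, and the rest were named after their values were seen. Counting was tested on simulated data. Alternatives were the pseudocount (1 or 64), no centring, quantile normalization, the mean of probe sets and a level filter. Python 3.11.15, numpy 2.4.6, pandas 2.3.3 and matplotlib 3.10.9 were used.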

Additional observations from a re-analysis of the deposited data

Results flagged for a closer look

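The RU486 difference had opposite signs in WT and PAX8PPARg for 5 of the 10 members, which drew attention to them. The difference between genotypes was 1.29 log2 for Notch1, 2.39 for Dll1, 1.51 for Jag2, 1.40 for Heyl and 1.96 for Nrarp. With 1 array per group it was not tested. Opposite signs were found for 47.6% of all genes, so a share of 5 in 10 is near that of all genes. By other probe sets, the WT difference of Notch1 was -0.03 and the PAX8PPARg difference of Heyl was -0.30, the latter of the same sign as in WT. In the other direction, the second Jag1 probe set had opposite signs, at -0.63 in WT and 0.13 in PAX8PPARg, unlike its brighter probe set.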

How the results depend on the processing

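Of 250 single member differences recomputed under 5 alternatives, 238 stayed on the same side of 2-fold. Among the 12 that did not, Heyl in WT with RU486 went from -1.15 to -0.53 log2 with averaged probe sets and to -0.86 with a pseudocount of 64, and Jag1 went from -1.34 to -0.98 with averaged probe sets. The difference of the RU486 effect for Jag1, 1.04, was 0.90 to 0.99 in 4 of the alternatives. Notch3 went from 0.96 to 1.05 with averaged probe sets and to 1.22 with a pseudocount of 1. A pseudocount of 1 took Hes1 in PAX8PPARg to 1.05, so that 1 member in place of 0 was at least 2-fold higher there. With averaged probe sets the median of the members for PAX8PPARg minus WT under RU486 was 0.95 in place of 1.40. No other count of members moved beyond 1.5 times, and no other median by more than the SD between probe sets, under the 6 alternatives. The small median for PAX8PPARg minus WT under placebo, 0.15, was 0.07 with the level filter, 0.10 with a pseudocount of 64, 0.24 with averaged probe sets and 0.34 without centring. Of 50 signs, 3 differed between settings: Notch1 and Nrarp for PAX8PPARg minus WT under placebo, and Heyl with RU486 in PAX8PPARg. Only that of Notch1 differed between scalings. For all genes in WT, a pseudocount of 1 gave 1725 lower and 1809 higher with RU486, against 1100 and 925, and a pseudocount of 64 gave 707 and 489. No paired analysis was possible because each group has 1 array. Signals near the bacterial controls limit Hes1, Notch4 and the dimmest Heyl probe set. On the WT RU486 array they also limit Notch3, at 41.6, and the second Nrarp probe set, at 39.5, beside a highest bacterial control of 18.5. The WT difference of Notch3 was -2.04 log2 with a pseudocount of 1 and -1.18 with 64, so its size depended on that choice.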
